A study of Bos taurus with 8 samples.

Results

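The genes described here encode surface and fusion proteins of the muscle satellite cell, the resident stem cell of skeletal muscle. They are *MYMK* (myomaker), *CDH15* (M-cadherin), *NCAM1*, *MET*, *HGF*, *CAV3* (caveolin 3), *SDC3* and *SDC4* (syndecans), and they were taken by gene symbol from a table of 18871 named genes. Of these 8 genes, 7 had a row in the table and were tested, and *HGF* was not analysed here. The samples were 8 bovine preadipocyte clones, 4 grown from the stromal vascular fraction (SVF) of intramuscular fat (IMF1 to IMF4) and 4 from that of subcutaneous fat (SF1 to SF4). The donors were adult male Angus cross steers with no treatment that set the groups apart. Each clone was grown by limiting dilution from a single cell of its own SVF sample. The clones were picked from a larger set by their behaviour in culture, so they are not a random sample of either depot. The study's methods place RNA collection in growth medium shortly before confluence, whereas the design text deposited with the data places adipogenic induction before sequencing. The comparison asked whether preadipocytes of the 2 depots differ in these genes.

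Satellite cells lie between the muscle fibre and its basal lamina, and they stay quiescent until injury or growth activates them. Hepatocyte growth factor, the product of *HGF*, is held in the matrix, and its release and binding to the receptor MET is a known trigger of that activation. Syndecans carry heparan sulphate chains that bind such growth factors at the cell surface. Activated cells become myoblasts, which adhere to each other through M-cadherin and NCAM and then fuse into multinucleated fibres by means of myomaker and its partner myomixer.

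Reads counted on genes ranged from 19654917 to 29308882 per IMF clone and from 19979899 to 24868233 per SF clone. Levels are given as the normalised read count, in CPM (counts scaled to a common library size) with edgeR's TMM factors, and 3 counts correspond to 0.0981 to 0.165 CPM depending on the clone. Such floors cover counting error only. A gene was called different when the adjusted p-value of edgeR's quasi-likelihood test was under 0.05 and the log2 fold change (IMF minus SF) was at least 1 in size. Of 18339 genes tested, 1618 (8.82%) were called, 877 of them (4.78% of genes tested) higher and 741 (4.04%) lower in IMF. Higher genes made up 54.2% of the calls, against 48.9% with DESeq2, 49.2% without IMF1, 75.4% with edgeR's glmTreat (which asks for more than a log2 change of 1) and 66.7% when clones were scaled by total counts alone. The last scaling moved the median of all log2 fold changes from -0.03 to 0.12. The p-values measure the spread between clones, and the sources used here do not say which clones came from the same steer.

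Of the 7 genes tested, 6 were called, 5 higher in IMF (*MYMK*, *CDH15*, *NCAM1*, *MET* and *CAV3*) and 1 lower (*SDC3*). The seventh, *SDC4*, had an adjusted p-value under 0.05 but a fold change below the threshold, and 25.8% of all genes had such an adjusted p-value. In all 7 genes the IMF and SF clones did not overlap, with IMF above SF in 6 and below in 1. Across all genes tested, 32.1% did not overlap, 18.0% with IMF above and 14.1% with IMF below. The median log2 fold change of the 7 genes was 2.10. These counts are a description, since *CDH15* and *CAV3* reached the minimum of 20 counts only through the IMF clones.

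**Figure D1:**
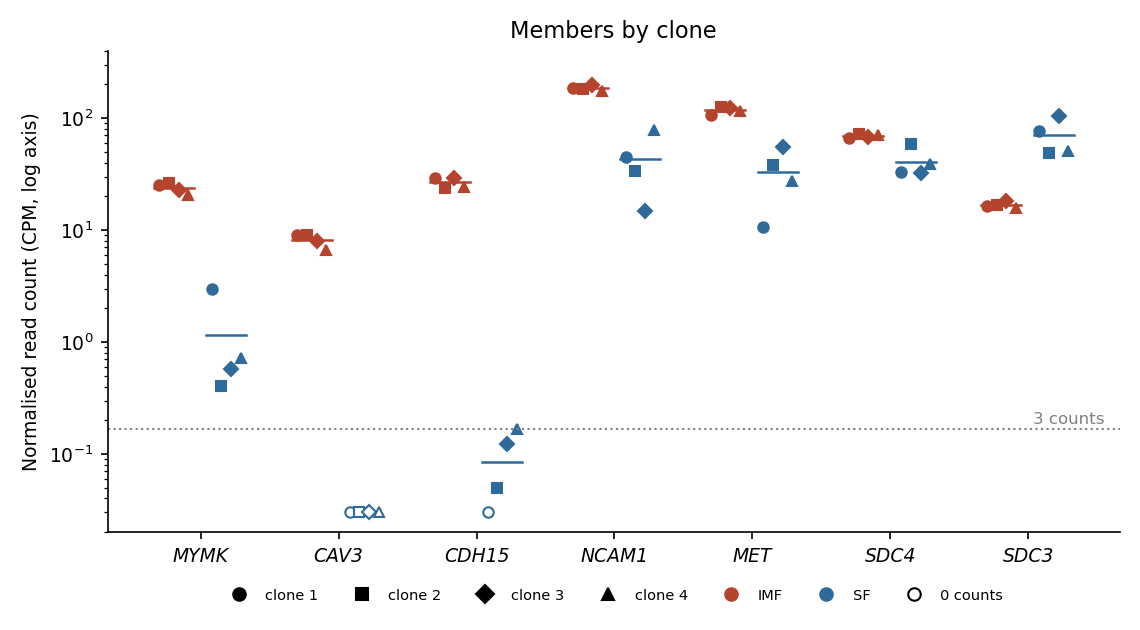
Normalised read count in CPM (log axis) of the 7 genes in each clone, with the marker shape giving the clone number, red for IMF, blue for SF, a bar for the group mean and open markers for 0 counts. The dotted line is 3 counts in SF4 (0.165 CPM), the highest such floor of the 8 clones. The 4 IMF clones lie close together for every gene, and *CAV3* has 0 counts in all 4 SF clones.

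*MYMK* encodes myomaker, the membrane protein that myoblasts need for fusion. Its gene lies on chromosome 11, from base 104396317 to 104416227 of ARS-UCD2.0. *MYMK* had 25.4, 26.1, 22.7 and 20.5 CPM in IMF1 to IMF4. It had 2.98, 0.400, 0.568 and 0.716 CPM in SF1 to SF4. Every IMF clone was thus well above every SF clone, and SF1, with 58 counts, stood apart from the other SF clones, which had 8 to 14. The group means were 23.7 ± 2.58 CPM (SD, n = 4) in IMF and 1.17 ± 1.21 CPM (SD, n = 4) in SF. The log2 fold change was 4.35 (SE 0.55, 95% interval 3.10 to 5.61), with an adjusted p-value of 0.000831 by edgeR. Without SF1 it was 5.39. In bulk RNA, fewer cells that make a transcript and less of the transcript per cell cannot be told apart.

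The partner of *MYMK* is *MYMX*, which encodes myomixer, the small protein that completes the fusion pore. *MYMX* had 180, 232, 192 and 126 counts in IMF1 to IMF4 and 0 in each SF clone. Its mean was 7.73 ± 1.26 CPM (SD, n = 4) in IMF, at least 52.3-fold above 3 counts per SF clone (adjusted p = 7.94e-05, edgeR). All 8 counts of *MYMX* are even, as in 1879 genes (9.96%) of the table, where equal chances of odd and even would give 0.391%, and none of the 7 genes described here has that property. If reads in such rows were counted in pairs, the *MYMX* values are too high, which was not tested. In TPM, which divides counts by gene length before scaling each clone to a common total, *MYMX* had 8.50 ± 1.91 TPM (SD, n = 4) and *MYMK* 3.16 ± 0.424 TPM in IMF. The *MYMK* value rests on a deposited length of 12513 bases, the longest of the 7 genes, and RefSeq lists 14 transcripts at this locus, 5 of them non-coding.

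*CDH15* encodes M-cadherin, a calcium-dependent adhesion protein that joins satellite cells to the muscle fibre and myoblasts to each other. It lies on chromosome 18, from base 14258167 to 14277418. *CDH15* had 613, 733, 646 and 511 counts in IMF1 to IMF4 and 0, 1, 3 and 3 counts in SF1 to SF4. The SF clones were therefore all at or under the floor, while the IMF clones had 29.4, 24.0, 29.3 and 24.3 CPM. The IMF mean of 26.8 ± 3.01 CPM (SD, n = 4) was at least 181-fold above 3 counts per SF clone, with an adjusted p-value of 4.29e-06 by edgeR.

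*NCAM1* encodes the neural cell adhesion molecule, which marks satellite cells and regenerating fibres. It spans bases 23472421 to 23834661 of chromosome 15. *NCAM1* had 185.9, 180.8, 195.9 and 173.8 CPM in IMF1 to IMF4 and 45.1, 33.8, 14.9 and 78.1 CPM in SF1 to SF4. The IMF clones were all above the SF clones, but *NCAM1* remained readily counted in SF, with 367 counts in the lowest clone (SF3) and 1417 in the highest (SF4). The means were 184.1 ± 9.31 CPM in IMF and 43.0 ± 26.5 CPM in the SF clones (n = 4 each, SD). The log2 fold change was 2.10 (SE 0.42, 95% interval 1.14 to 3.06), with an adjusted p-value of 0.00762 by edgeR. Tested against a log2 fold change of 1 with glmTreat, the adjusted p-value was 0.112.

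*MET* encodes the receptor tyrosine kinase that binds hepatocyte growth factor. Its gene spans bases 51620793 to 51735566 of chromosome 4. *MET* had 106.0, 125.8, 123.7 and 115.2 CPM in IMF1 to IMF4 and 10.7, 37.8, 55.7 and 27.4 CPM in SF1 to SF4. The groups did not overlap, with the IMF clones within a narrow range and SF1 lowest and SF3 highest of the SF clones. The means were 117.7 ± 9.04 CPM in IMF and 32.9 ± 18.8 CPM in the SF clones (n = 4 each, SD). The log2 fold change was 1.84 (SE 0.41, 95% interval 0.90 to 2.77), with an adjusted p-value of 0.0126 by edgeR. Against a log2 fold change of 1 with glmTreat, the adjusted p-value was 0.225. The ligand gene *HGF*, on the same chromosome from base 38928997 to 39014317, was not analysed here, so no statement about the ligand is made.

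*CAV3* encodes caveolin 3, the muscle form of the protein that coats caveolae, the small pits of the plasma membrane. It lies on chromosome 22, from base 17791384 to 17805131. *CAV3* had 187, 278, 175 and 138 counts in IMF1 to IMF4 and 0 counts in every SF clone. The IMF clones had 8.97, 9.09, 7.93 and 6.57 CPM, with a mean of 8.14 ± 1.17 CPM (SD, n = 4). That was at least 55.1-fold above 3 counts per SF clone, with an adjusted p-value of 6.33e-05 by edgeR. The annotated span of *CAV3* lies inside that of *OXTR*, which was not analysed here, and the sources used here differ on whether the libraries kept the strand.

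*SDC3* and *SDC4* encode transmembrane proteoglycans, both found on satellite cells, and they differed in opposite directions. *SDC3* lies on chromosome 2 from base 122667127 to 122702779. It had 16.4, 16.9, 18.1 and 15.9 CPM in IMF1 to IMF4 and 76.8, 49.0, 104.5 and 50.8 CPM in SF1 to SF4. Every SF clone was above every IMF clone, and SF3 was the highest. The means were 16.8 ± 0.937 CPM in IMF and 70.3 ± 26.1 CPM in the SF clones (n = 4 each, SD). The log2 fold change was -2.06 (SE 0.24, 95% interval -2.61 to -1.51), with an adjusted p-value of 0.000576 by edgeR. *SDC3* was the only one of the 7 genes with a lower level in IMF, and it was called lower in IMF in all 17 alternative fits.

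*SDC4* lies on chromosome 13 from base 73669857 to 73691258. It had 66.5, 72.3, 67.3 and 71.3 CPM in IMF1 to IMF4 and 32.8, 58.2, 32.4 and 39.1 CPM in SF1 to SF4. The IMF clones were above the SF clones, the nearest being SF2. The means were 69.3 ± 2.85 CPM in IMF and 40.6 ± 12.1 CPM in the SF clones (n = 4 each, SD). The log2 fold change was 0.77 (SE 0.18, 95% interval 0.36 to 1.19), with an adjusted p-value of 0.0154 by edgeR. The difference was larger than the spread between clones but did not reach the threshold on its size.

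**Figure D2:**
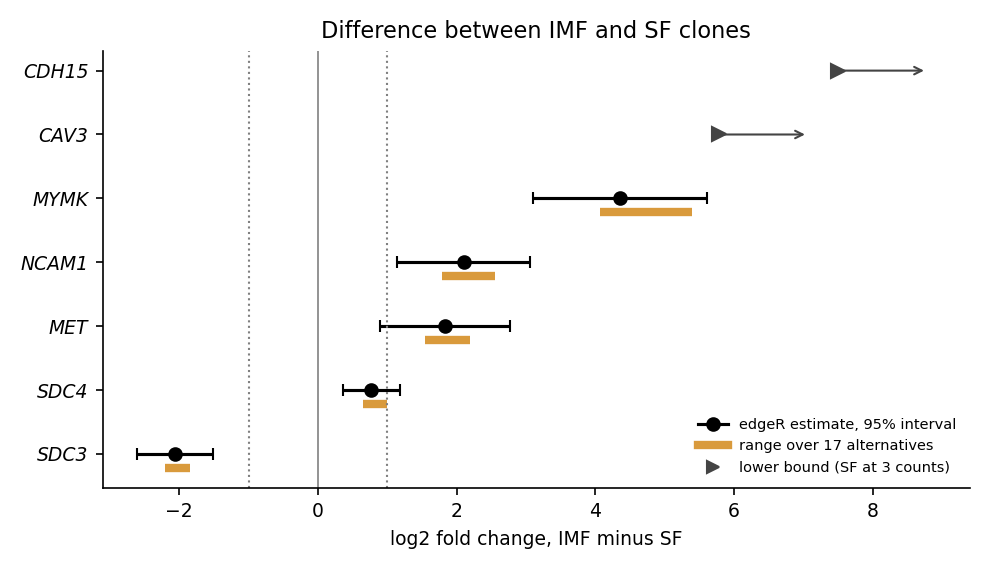
Log2 fold change (IMF minus SF) of the 7 genes, with black points and bars for edgeR's estimate and 95% interval, orange bars for the range over 17 alternative fits, and arrowheads for lower bounds computed at 3 counts per SF clone. Dotted lines mark a log2 fold change of 1 in either direction. *MYMK* sits at 4.35, *NCAM1* at 2.10, *MET* at 1.84, *SDC4* at 0.77 and *SDC3* at -2.06, while *CDH15* and *CAV3* are bounds.

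The clones of the 2 groups differed in how much they varied among themselves. Across the 7 genes, the coefficient of variation of the CPM in IMF was between 4.11% (*SDC4*) and 14.4% (*CAV3*). In SF, for the 5 genes above the floor, it was between 29.8% (*SDC4*) and 104.2% (*MYMK*), and it was larger than in IMF for 5 of 5. A wider spread in SF was common in the table. Among 14351 genes with at least 1 CPM in both groups, 71.1% had the larger coefficient in SF, with medians of 8.01% in IMF and 16.1% in SF.

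No single SF clone was high or low for all 7 genes. SF1 had the highest *MYMK* and the lowest *MET*, SF2 the highest *SDC4*, SF3 the highest *MET* and *SDC3* but the lowest *NCAM1*, and SF4 the highest *NCAM1*. The highest SF clone exceeded the lowest 7.43-fold for *MYMK*, 5.24-fold for *NCAM1*, 5.19-fold for *MET*, 2.13-fold for *SDC3* and 1.80-fold for *SDC4*. In TPM, the ratio of *NCAM1* to *MET* was between 1.08 and 1.32 in the IMF clones. In SF1 to SF4 it was 3.17, 0.673, 0.202 and 2.14, so that *NCAM1* was above *MET* in SF1 and SF4 and below it in SF2 and SF3.

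Levels of different genes were compared per length, in TPM, with the gene lengths that the authors deposited. In IMF, *SDC4* was the highest of the 7 genes at 44.5 ± 1.50 TPM (SD, n = 4), followed by *NCAM1* at 35.4 ± 4.22 TPM and *MET* at 30.0 ± 2.76 TPM, whose ranges overlapped. *CDH15* (14.9 ± 2.72 TPM), *CAV3* (14.7 ± 2.53 TPM) and *SDC3* (12.3 ± 1.42 TPM) followed, and neighbours in this order overlapped. *MYMK* was the lowest, at 3.16 ± 0.424 TPM. In SF, *SDC3* came first with 51.0 ± 20.8 TPM, and it was above *SDC4* (26.0 ± 9.51 TPM) in 3 of the 4 clones. *MET* (8.45 ± 5.22 TPM) and *NCAM1* (7.85 ± 4.17 TPM) overlapped, and *MYMK* followed at 0.151 ± 0.156 TPM. In 3 of the 4 SF clones the order of *SDC3* and *SDC4* was thus the reverse of that in IMF, while in SF2 they were nearly equal. The ratio of *SDC4* to *SDC3* in TPM was 3.57, 3.77, 3.28 and 3.95 in IMF1 to IMF4 and 0.376, 1.05, 0.273 and 0.677 in SF1 to SF4.

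The syndecan family has 4 members in mammals, and all were measured. Summed over *SDC1* to *SDC4*, the clones had 185.0 ± 16.0 TPM in IMF and 251.6 ± 40.0 TPM in SF (n = 4 each, SD). *SDC3* made up 6.65 ± 0.392% of that sum in IMF, and 19.95%, 15.4%, 27.5% and 16.5% of it in SF1 to SF4. *SDC4* made up 24.2 ± 1.44% in IMF, and 7.51%, 16.1%, 7.50% and 11.2% in SF1 to SF4. The shares of both syndecans did not overlap between the groups, *SDC3* being the larger share in SF and *SDC4* in IMF. *SDC1*, the most abundant syndecan in TPM in 8 of 8 clones, had a log2 fold change of -0.62 (95% interval -1.11 to -0.13, adjusted p = 0.066, edgeR). *SDC2* had a log2 fold change of -0.13 (95% interval -1.17 to 0.90, adjusted p = 0.866, edgeR), with 26.9 CPM in SF1 and 88.8 to 156.6 CPM in the other SF clones. Neither was called.

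**Figure D3:**
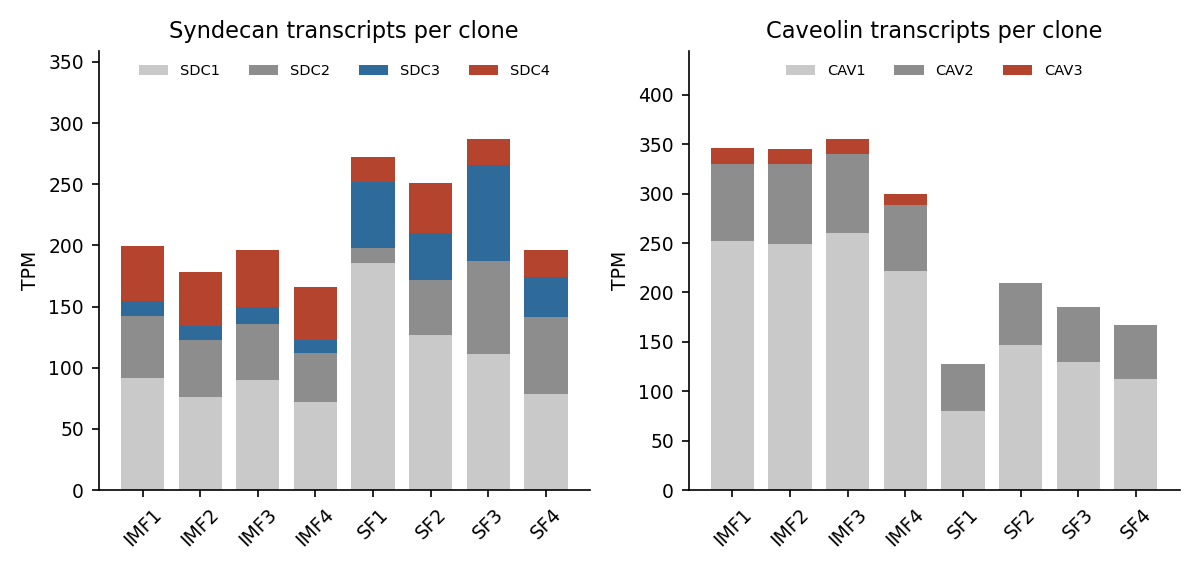
Stacked bars of TPM per clone for the 4 syndecans (left) and the 3 caveolins (right), with the colours given in each legend and both axes starting at 0. *SDC3* is a thin band in the IMF bars (6.31% to 7.22% of the sum) and a wide one in the SF bars, and the *CAV3* band is present in the 4 IMF bars and absent from the 4 SF bars.

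The caveolins *CAV1*, *CAV2* and *CAV3* summed to 336.7 ± 25.4 TPM in IMF and 172.4 ± 34.4 TPM in SF (n = 4 each, SD), and the groups did not overlap. *CAV3* was 4.35 ± 0.496% of this sum in IMF, and 1.88% when the share was taken from CPM. *CAV1*, the main caveolin of most cells, made up 73.0% in IMF and 67.5% in SF and was called higher in IMF (402.9 ± 20.8 against 193.7 ± 39.6 CPM, SD, n = 4 each, log2 fold change 1.06, adjusted p = 0.00168, edgeR). Without SF1 its log2 fold change was 0.92, below the threshold, and glmTreat did not call it. *CAV2* had a log2 fold change of 0.45 (adjusted p = 0.0133, edgeR) and was not called.

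The cavins assemble the caveola coat together with the caveolins. *CAVIN2* was the only one of the 4 cavins called, with 21.6 ± 0.551 CPM in IMF and 0.445 ± 0.184 CPM in the SF clones (n = 4 each, SD, log2 fold change 5.60, SE 0.22, adjusted p = 2.89e-06, edgeR). Its counts were 446 to 669 in the IMF clones and 7 to 14 in the SF clones. *CAVIN1*, *CAVIN3* and *CAVIN4*, the last known from muscle caveolae, had log2 fold changes of 0.07, -0.03 and 0.11. Their 95% intervals were -0.27 to 0.42, -0.30 to 0.24 and -0.52 to 0.73, and their signs turned in some alternative fits. Of the 16 genes of a list of caveola proteins, 2 were called higher (*CAV1* and *CAVIN2*) and 0 lower (1 without IMF1), beside 4.78% and 4.04% of all genes, with a median log2 fold change of 0.13. At adjusted p under 0.05 without the fold threshold, 4 of the 16 were higher and 0 lower, beside 25.8% of all genes in either direction.

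Other surface proteins known from satellite cells were examined as a list of 16, of which 12 were tested. In this list, 6 were called higher in IMF and 1 lower, with a median log2 fold change of 1.50, beside 4.78% and 4.04% of all genes. *ITGA7*, the integrin chain that binds laminin in the basal lamina, had 258.1 to 279.0 CPM in IMF. In SF it had 1, 3, 58 and 158 counts in SF1 to SF4, so the SF clones ranged from the floor to 8.71 CPM. Its log2 fold change was 6.59 (SE 1.10, adjusted p = 0.00328, edgeR), and 8.20 without SF4.

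*FGFR4*, a receptor for fibroblast growth factors, had 16.8 ± 1.02 CPM in IMF (SD, n = 4) and 0 or 1 count per SF clone, a difference of at least 114-fold. *CD82*, a tetraspanin, had 25.3 ± 3.40 CPM in IMF and 3.96 ± 2.75 CPM in the SF clones (log2 fold change 2.68, adjusted p = 0.00362, edgeR). *LRP4*, the agrin receptor, was the gene called lower, at 16.7 ± 0.690 against 46.5 ± 37.1 CPM (log2 fold change -1.48, adjusted p = 0.0491, edgeR). That call was lost in 11 of 17 alternative fits. The *LRP4* mean in SF leaned on SF2, with 2012 counts, and without SF2 the log2 fold change was -0.77. The other genes called higher were *CD34* (at least 70.8-fold), *TEK* (log2 fold change 3.04) and *ERBB3* (at least 14.9-fold), which were chosen for naming after their values were seen. *TEK* also stands in the list of endothelial markers and *ERBB3* in that of Schwann cell markers used below.

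**Figure D4:**
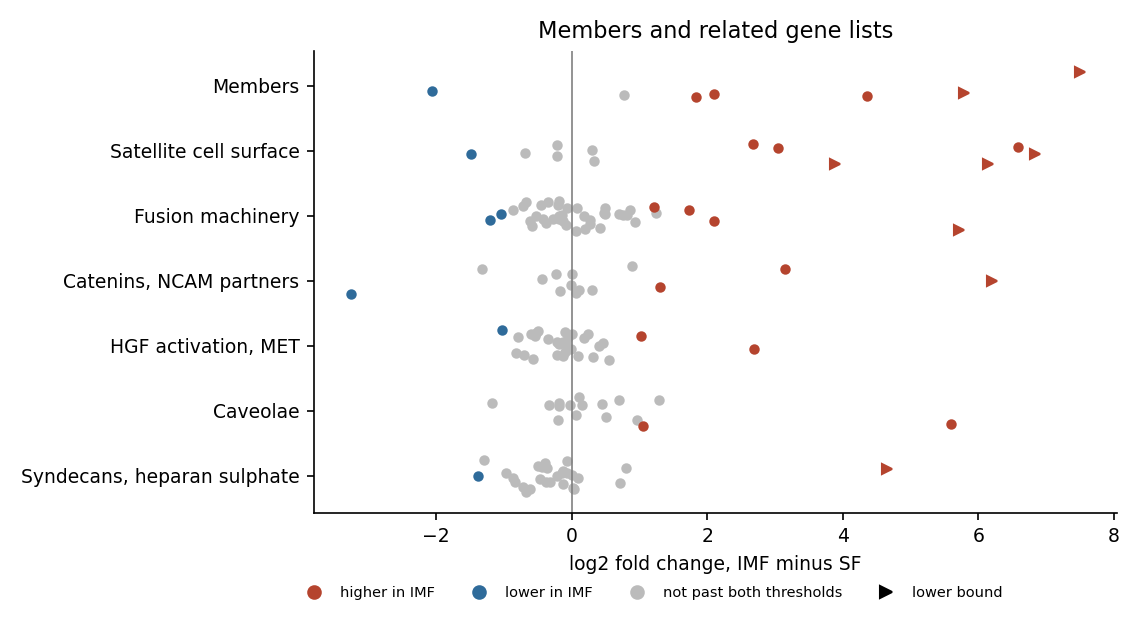
Log2 fold change (IMF minus SF) of each tested gene in 7 lists, with red for genes called higher, blue for genes called lower, grey for genes not past both thresholds, and triangles for lower bounds at 3 counts per SF clone. Vertical position within a list is random. Of the 42 fusion genes 36 are grey, and of the 7 genes in the top list 1 (*SDC4*) is.

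*MYMX* belongs to a list of the wider machinery of fusion, which leaves out *MYMK*. Of its 42 tested genes for adhesion, signalling, actin remodelling and membrane merger in fusion, 4 were called higher in IMF, *MYMX* among them, and 2 lower, beside 4.78% and 4.04% of all genes, with a median log2 fold change of -0.07. *CDON*, a co-receptor that signals from cadherin contacts between myoblasts, had 67.7 ± 3.33 CPM in IMF and 20.4 ± 7.40 CPM in the SF clones (n = 4 each, SD, log2 fold change 1.73, adjusted p = 0.0011, edgeR). *BOC*, its close relative, went the other way, with 4.52 ± 0.921 against 10.4 ± 3.41 CPM (log2 fold change -1.20, adjusted p = 0.01, edgeR). With glmTreat the *BOC* call was lost. *ELMO1*, which acts with DOCK1 on the GTPase RAC1, was called higher (log2 fold change 1.22, adjusted p = 0.0411, edgeR), and the call was lost in 9 of 17 alternative fits. *ANXA5*, an annexin that binds exposed phosphatidylserine, was called lower (473.0 ± 21.7 against 969.9 ± 192.3 CPM, log2 fold change -1.04, adjusted p = 0.00161, edgeR). Without SF3 its log2 fold change was -0.96, and scaled by total counts alone it was also short of the threshold. The *ANXA5* call was lost with glmTreat as well. The last of the 4 genes called higher was *ARHGAP26* (log2 fold change 2.10, adjusted p = 0.00148, edgeR), named after its value was seen.

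Catenins link cadherins to the actin skeleton, and L1 family proteins and polysialyltransferases act with NCAM. Of 14 such genes tested, 3 were called higher in IMF and 1 lower, beside 4.78% and 4.04% of all genes, with a median log2 fold change of 0.04. *CHL1*, an adhesion molecule of the L1 family, had 220 to 321 counts in IMF and at most 1 in SF (at least 73.5-fold), and *L1CAM* had a log2 fold change of 1.31 (adjusted p = 0.0105, edgeR). The *L1CAM* call was lost with glmTreat. *ST8SIA2*, an enzyme that adds polysialic acid to NCAM, had 55 to 70 counts in IMF and 0, 1, 20 and 4 counts in SF1 to SF4. Its log2 fold change was 3.15 (adjusted p = 0.0264, edgeR), 4.75 without SF3, and the call was lost in 7 of 17 alternative fits. *CTNNA2*, an alpha-catenin best known from neurons, was lower, with 2 to 10 counts in IMF and 30 to 119 in SF (log2 fold change -3.26, adjusted p = 0.00426, edgeR).

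Around *MET*, 31 genes for the activation of hepatocyte growth factor and for signalling by its receptor were tested. Of these, 2 were called higher in IMF and 1 lower, a share near the 8.82% of all genes called, with a median log2 fold change of -0.10. *PLAU*, the urokinase protease that can cleave pro-HGF, had 82.4 ± 1.52 CPM in IMF and 12.8 ± 6.00 CPM in the SF clones (n = 4 each, SD, log2 fold change 2.69, SE 0.32, adjusted p = 0.000611, edgeR). *HIF1A*, a transcription factor of the hypoxia response, had 222.1 ± 5.66 against 108.5 ± 12.2 CPM (log2 fold change 1.03, adjusted p = 0.000157, edgeR). Without SF2 its log2 fold change was 0.97, and glmTreat did not call it. *LRIG1*, which promotes receptor degradation, was called lower, with a log2 fold change of -1.03 (adjusted p = 0.00623, edgeR) that was -0.78 without SF1, and the call was lost in 5 of 17 alternative fits.

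Of 28 tested genes among the other syndecans, the glypicans and the enzymes that build and trim heparan sulphate, 1 was called higher and 1 lower in IMF, beside 4.78% and 4.04% of all genes, with a median log2 fold change of -0.34. The number lower was 3 without SF1 and 2 without IMF1 or SF2. *HS3ST1*, a heparan sulphate sulphotransferase, had 65 to 116 counts in IMF and at most 2 in SF (at least 25.1-fold). *GPC4*, a glypican held at the membrane by a lipid anchor, was lower, with 62.2 ± 1.08 CPM in IMF and 162.2 ± 20.5 CPM in the SF clones (n = 4 each, SD, log2 fold change -1.38, adjusted p = 4.31e-05, edgeR). The direction of *GPC4* was thus that of *SDC3*, and that of *HS3ST1* was that of the other 6 genes.

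Of the measured protein-coding genes next to the 7 genes on their chromosomes, *CAV1* was the only one called. *SLC22A31*, which begins 4 bases after *CDH15*, had a log2 fold change of -0.47 (adjusted p = 0.448, edgeR), and *ACSF3* on the other side 0.09 (adjusted p = 0.718). Beside *MET*, *CAPZA2* had a log2 fold change of 0.10 (adjusted p = 0.611, edgeR), and *CAV1*, on the other side at a distance of 130185 bases, had 1.06. *TTC12* beside *NCAM1* had 0.32 (adjusted p = 0.493, edgeR), *RAD18* and *SSUH2* beside *CAV3* had -0.07 and -0.70 (adjusted p = 0.692 and 0.599, edgeR), and *SYS1* beside *SDC4* had -0.24 (adjusted p = 0.0977, edgeR). *ADAMTSL2*, which begins 219 bases after *MYMK*, was not analysed here.

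The genes most like each of the 7 in their profile were found from log2 CPM centred on the mean of the 8 clones, among 12773 genes with a mean of at least 1 CPM, by the root mean square difference. Closest to *MYMK* were *KLHL30* (0.21 log2 units), *S1PR1* (0.27) and *KBTBD11* (0.29), which like *MYMK* had their highest SF count in SF1. Closest to *CAV3* were *ACTN2* (0.08), *MYMX* (0.11) and *NTN5* (0.11), and closest to *CDH15* were *ATP8A1* (0.41), *SOX11* (0.42) and *ADORA1* (0.42). All of these 6 had 0 counts in each SF clone, so the likeness rests on a shared floor. In IMF, those closest to *CDH15* had 13.7 to 16.5 CPM, below its own level. *NCAM1* was nearest to *TNNT3* (0.29), *CEND1* (0.30) and *TMEM132B* (0.31), and *MET* to *DOK6* (0.21), *LPAR1* (0.21) and *MYOM1* (0.24). *SDC3* was nearest to *LOXL4* (0.21), *PTPRR* (0.21) and *LOXL2* (0.23), and *SDC4* to *EBF1* (0.12), *SELENBP1* (0.12) and *NME3* (0.13).

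Marker lists of cell types were read beside these genes, and their calls stand beside 4.78% of all genes called higher and 4.04% called lower. Of 12 myogenic markers, 12 were called higher in IMF, and their summed level was 821.7 to 948.7 CPM in IMF and 3.50 to 26.4 CPM in the SF clones. *MYOD1*, *MYOG*, *CKM*, *TNNC1* and *CHRNA1* had 0 counts in every SF clone, and *DES* (desmin) reached 21.9 CPM in the SF clone where it was highest. Of 13 endothelial markers, 12 were called higher in IMF, with sums of 333.4 to 359.9 CPM in IMF and 19.2 to 44.5 CPM in the SF clones, and *KDR*, *SELE*, *CD93* and *EMCN* had 0 counts in every SF clone. *FLT1* was the endothelial marker not called, at 14.3 CPM in IMF and 14.8 to 41.7 CPM in the SF clones. Both sets of markers thus moved with *MYMK*, *CDH15*, *NCAM1*, *MET* and *CAV3*, and their part in the differences of these genes was not tested.

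The markers of fibro-adipogenic stroma, the lineage that the label preadipocyte implies, were present in both groups, at 22899 to 23981 CPM in IMF and 37576 to 42107 CPM in the SF clones. That difference was carried by *COL1A1*, a collagen gene. Without it, a sum computed after the values were seen, the groups overlapped, at 10574 to 11066 CPM in IMF and 8825 to 11489 CPM in the SF clones. Of 10 such markers, 1 was called higher and 4 lower in IMF, beside 4.78% and 4.04% of all genes, as for the lists that follow. The number lower was 2 when any 1 of IMF1 to IMF4 and SF1 was left out. Without SF2, 2 were called higher and 3 lower. *PDGFRA* had 184.3 CPM in IMF and 111.1 to 153.3 CPM in the SF clones. Pericyte and smooth muscle markers summed to 2210 to 2475 CPM in IMF and 3246 to 11040 CPM in the SF clones, the side of *SDC3*, with 2 of 7 called higher and 4 lower, and their part was not tested. Without IMF3, 0 were called higher and 3 lower, without SF1 2 and 2, and without IMF1, IMF2, IMF4, SF2, SF3 or SF4 1 was called higher. Leukocyte markers summed to 31.5 to 55.1 CPM in IMF and 56.1 to 96.2 CPM in the SF clones, with 1 of 9 called higher (*CD14*, log2 fold change 1.48) and 1 lower (*CD3E*, log2 fold change -1.33). With IMF3, SF1, SF2 or SF4 left out in turn, 0 leukocyte markers were called lower, and with SF3 or SF4 left out 2 were called higher. Schwann cell markers summed to 70.0 to 76.2 CPM in IMF and 73.5 to 117.1 CPM in the SF clones, with 2 of 8 called higher and 1 lower. Markers of lipid-filled adipocytes were low, at 19.6 to 21.1 CPM in IMF and 9.26 to 16.6 CPM in the SF clones, with 1 of 5 called, *FABP4*, which was higher in IMF.

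**Figure D5:**
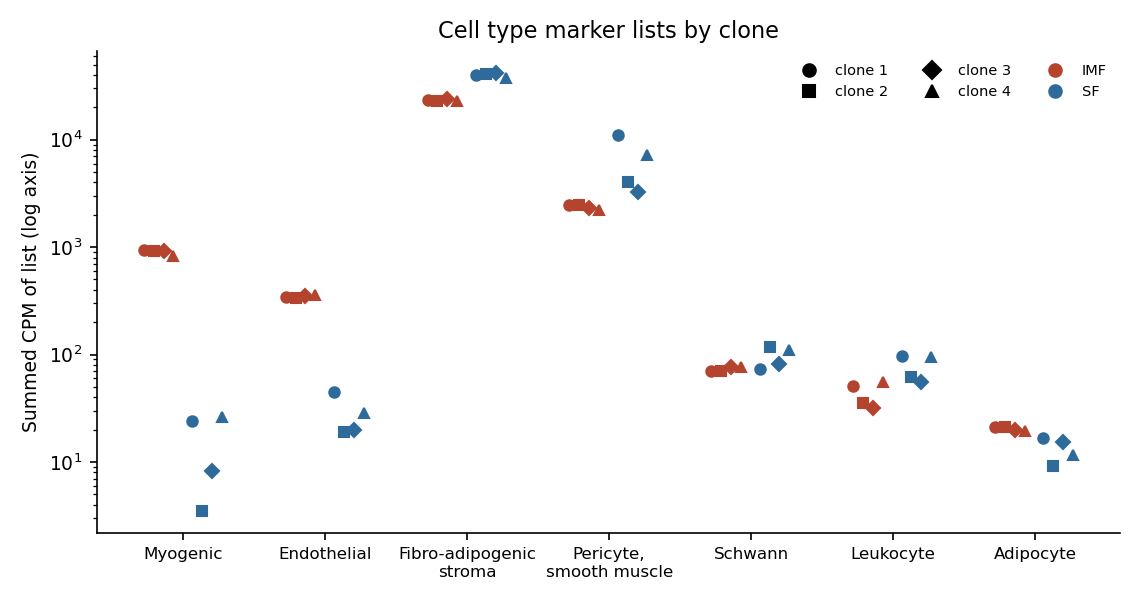
Summed CPM (log axis) of 7 lists of cell type markers in each clone, with the marker shape giving the clone number, red for IMF and blue for SF. The myogenic and endothelial sums of the 4 IMF clones lie above those of all SF clones, and the stromal and pericyte sums lie below, the stromal sum through *COL1A1*. The pericyte sum is mostly *ACTA2* and *TAGLN*.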

How the data were processed

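RNA was sequenced from 8 clones, 4 IMF and 4 SF, grouped by their sample labels. Per the study's methods, reads were trimmed (Trimmomatic), mapped by HISAT2 on the ARS-UCD2.0 genome, and assigned to genes by featureCounts. The submitters' processing notes name Trimmomatic 0.39, STAR 2.7.11a, featureCounts 2.0.2 and DESeq2 1.42.0. The methods describe unstranded libraries and the labels a protocol that marks the strand, and the labels give 5 steers where the methods give more. The values used are whole-number counts per gene that the authors deposited without normalization, with gene lengths. Their group averages and their DESeq2 columns (mean, fold change, standard error, statistic, p-values, category) were not used. The 1 row naming no gene (0.0148% to 0.0209% of counts) and 532 genes under 20 counts in total were left out.

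The test was that of edgeR 4.0.16 (R 4.3.3, TMM, two-sided quasi-likelihood test, Benjamini-Hochberg adjustment over 18339 genes). Standard errors are the fold change divided by the root of the F statistic. A fold against a group with at most 3 counts in each clone was computed against 3 counts per clone. TPM used the deposited lengths. Log2 CPM used a prior count of 2. Python 3.11.15 made tables and figures, and the scripts were tested on simulated data. The deposited table gave between 17616 and 18178 genes with a count per clone. The 8 genes and the lists were chosen with earlier results of these data known, so no list was tested. Named beside them were all syndecans, caveolins and cavins, up to 4 called genes of highest mean CPM per list, the 3 genes closest in profile, chromosomal neighbours, and markers by cell type. Coordinates are RefSeq's for ARS-UCD2.0. Alternatives were DESeq2, limma-voom (limma 3.58.1), RLE factors, total counts alone, no filter, at least 10 counts in at least 4 clones, glmTreat, the clone number as a block, robust dispersion, shares from CPM, and leaving out each clone.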

Additional observations from a re-analysis of the deposited data

Results flagged for a closer look

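*MYMK* in SF1 was flagged because this clone lay far from the other SF clones, at 2.98 CPM against 0.400 to 0.716 CPM in SF2 to SF4. The gap made up 0.877 of the range of the SF clones, above Dixon's 95% critical value for 4 samples. Of 12 groups examined 1 was flagged, and chance flags about 1 in 20. With or without SF1, *MYMK* was called higher in IMF.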

How the results depend on the processing

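In 16 of 17 alternative fits 6 of the 7 genes were called, also with each clone left out in turn (6 to 6), while glmTreat called 4 and lost *NCAM1* and *MET*, since it asks for a log2 fold change beyond 1. No gene of the 7 changed sign. The genes called among all tested numbered 631 with glmTreat, 1996 with DESeq2 and 1332 to 1643 with a clone left out. The share of *SDC3* among syndecans in IMF was 5.54% and that of *CAV3* among caveolins 1.88% from CPM, where length is not divided out. IMF and SF clones share numbers, and whether equal numbers mean the same steer is not known. Correlations of deviations from the group means were -0.00933 to 0.139 (mean 0.0548) for the 4 same-numbered pairs. For the other 12 they were -0.105 to 0.109 (mean -0.0184), and 4 of 8 clones correlated best with their own number. Correlations this near 0 in 4 pairs cannot decide whether the numbers pair the clones. With the number as a replicate block, 6 of the 7 genes and 1489 genes in all were called. Limits are that 4 clones per depot fix the precision, that levels at or under 3 counts are bounds, and that TPM rests on the deposited lengths.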
